A study of Mus musculus with 12 samples.

Results

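The set described here holds the loci whose RNA stood far higher in wild-type embryoid bodies than in any other group of a mouse embryonic stem cell series. A locus belonged to it when its mean CPM (its count scaled to the column sum of each library) in the WT day 6 libraries was at least 5 and at least 20 times the mean in each of the other 3 groups. By this rule 38 of 40039 loci were members, of 10002 loci with a WT day 6 mean of at least 5 CPM. The same rule turned to the other groups found 1 locus for Notch1-/- day 6, 2 for Notch1-/- day 0 and 0 for WT day 0. Because the values of all 4 groups chose the members, their comparisons are descriptions. Those with WT day 6 have no test, and the calls between the other groups, whose means the rule kept low, support nothing about the set.

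Poly(A) RNA was sequenced in 4 groups of 3 libraries each: Notch1-/- cells at day 6, WT cells at day 6, Notch1-/- cells at day 0 and WT cells at day 0. Notch1 encodes a receptor through which neighbouring cells signal to each other, and the series set out to describe coding and noncoding RNA with and without it. All 4 groups carry the strain label C57BL/6J. At day 0 the embryonic stem cells grew with LIF, a cytokine that holds them undifferentiated, on embryonic fibroblast feeders or on gelatin. At day 6 they were embryoid bodies, aggregates grown from hanging drops of 1000 cells in a protocol meant to give heart cells. The labels give neither the part of Notch1 that was deleted, nor the number of cell lines per genotype, nor which libraries came from feeder cultures, so a difference between genotypes cannot be told apart from a difference between lines. The design text names 3 biological replicates per condition. Whether these were separate cultures is not stated, so p-values measure the spread between these libraries, which may be technical.

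Notch1 itself (chr2:26301026-26363148, mm9) had 6.68, 4.79 and 4.94 CPM in Notch1-/- day 6 libraries, against 38.2, 30.2 and 32.1 CPM in WT day 6 libraries. At day 0 it had 3.81, 3.51 and 4.46 CPM in Notch1-/- libraries, against 70.3, 23.9 and 35.7 CPM in WT libraries. The genotype labels and the gene's RNA thus matched in all 12 libraries. Library totals ran from 100637179 to 134662426 counts. Summed cardiomyocyte markers did not stand higher at day 6 than at day 0, with 86.9 to 89.2 CPM in Notch1-/- day 6, 109 to 120 CPM in WT day 6, 88.4 to 115 CPM in Notch1-/- day 0 and 106 to 130 CPM in WT day 0 libraries. Such a sum follows its most abundant genes. By the edgeR test described below, 8 of 18 tested genes were higher and 6 lower in WT day 6 than in WT day 0. Of all tested loci 18.4% were higher and 24.7% lower. Between the Notch1-/- days 2 genes were higher and 4 lower, against 17.2% and 18.7% of all tested loci. Hprt, which encodes a purine salvage enzyme and lies beside 2 of the members, averaged 228.7 ± 13.9 CPM in Notch1-/- day 6 and 1.40 ± 0.0779 CPM in WT day 6 libraries, and 273 ± 18.7 CPM in Notch1-/- day 0 and 15.4 ± 5.61 CPM in WT day 0 libraries (SD, n = 3 each). The cells of the 2 genotypes therefore differed in the RNA of a gene other than Notch1 on both days.

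Embryoid bodies form tissues of the early embryo and its membranes. In the mouse embryo the first blood cells, which carry embryonic globins, and the first vessels form in the yolk sac, next to the visceral endoderm, an outer layer that secretes carrier proteins. The allantois and the posterior body wall express hindlimb and posterior Hox regulators, and imprinted genes such as Igf2, active from the paternal copy, drive growth. Some of the 38 loci belong to these programmes, and others have other known roles or none.

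Of the 38 members, 34 were linked to exactly 1 gene, 1 was a merged locus that holds Hoxc8, Hoxc9, Hoxc10 and Hoxc11, and 3 were linked to no gene. Protein-coding genes made up 32 of them and noncoding genes 3. The members lay on 18 chromosomes and were mostly far apart. Members within 500 kb of each other formed 1 cluster, C430049B03Rik and Plac1 on the X chromosome, with a gap of 12.8 kb. The next closest pair, the unnamed locus XLOC_000007 and Npbwr1 on chromosome 1, was 599.8 kb apart. The X chromosome held 5 members (Capn6, C430049B03Rik, Zfp711, Plac1 and Asb12), or 13.2% of the set, where it held 3.77% of all loci with a WT day 6 mean of at least 5 CPM.

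The loci of 2 members hold microRNA hairpins, and their mature sequences are shown for that reason. Whether the hairpins lie in exons of the longer transcripts of these loci was not tested. In the deposited models the locus of C430049B03Rik (chrX:50404144-50410402, mm9, minus strand) contains the Mir322, Mir503 and Mir351 hairpins, of 95, 71 and 99 bases, as transcripts of their own. The merged Hoxc locus (chr15:102773301-102824817, mm9, plus strand) contains the Mir196a-2 hairpin, of 85 bases. Mature sequences are from RefSeq (GRCm38.p6), with the seed, bases 2 to 8, in capitals.
mmu-miR-322-5p: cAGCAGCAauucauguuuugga
mmu-miR-322-3p: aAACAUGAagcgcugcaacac
mmu-miR-503-5p: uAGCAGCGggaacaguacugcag
mmu-miR-503-3p: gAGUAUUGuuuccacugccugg
mmu-miR-351-5p: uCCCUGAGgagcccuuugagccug
mmu-miR-351-3p: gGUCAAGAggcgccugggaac
mmu-miR-196a-5p: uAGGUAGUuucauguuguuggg
mmu-miR-196a-2-3p: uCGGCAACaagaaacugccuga
The arms miR-322-5p and miR-503-5p share bases 2 to 7, which are those of the miR-15 and miR-16 family, and no 2 of the 8 sequences share the whole seed. Mir196a-2 belongs to a family encoded within Hox clusters that is known to target Hox mRNAs. Counts over these loci measure poly(A) host RNA and not the mature microRNAs. Mir483 lies in an intron of Igf2 and has no exon in the deposited models.

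**Figure D1:**
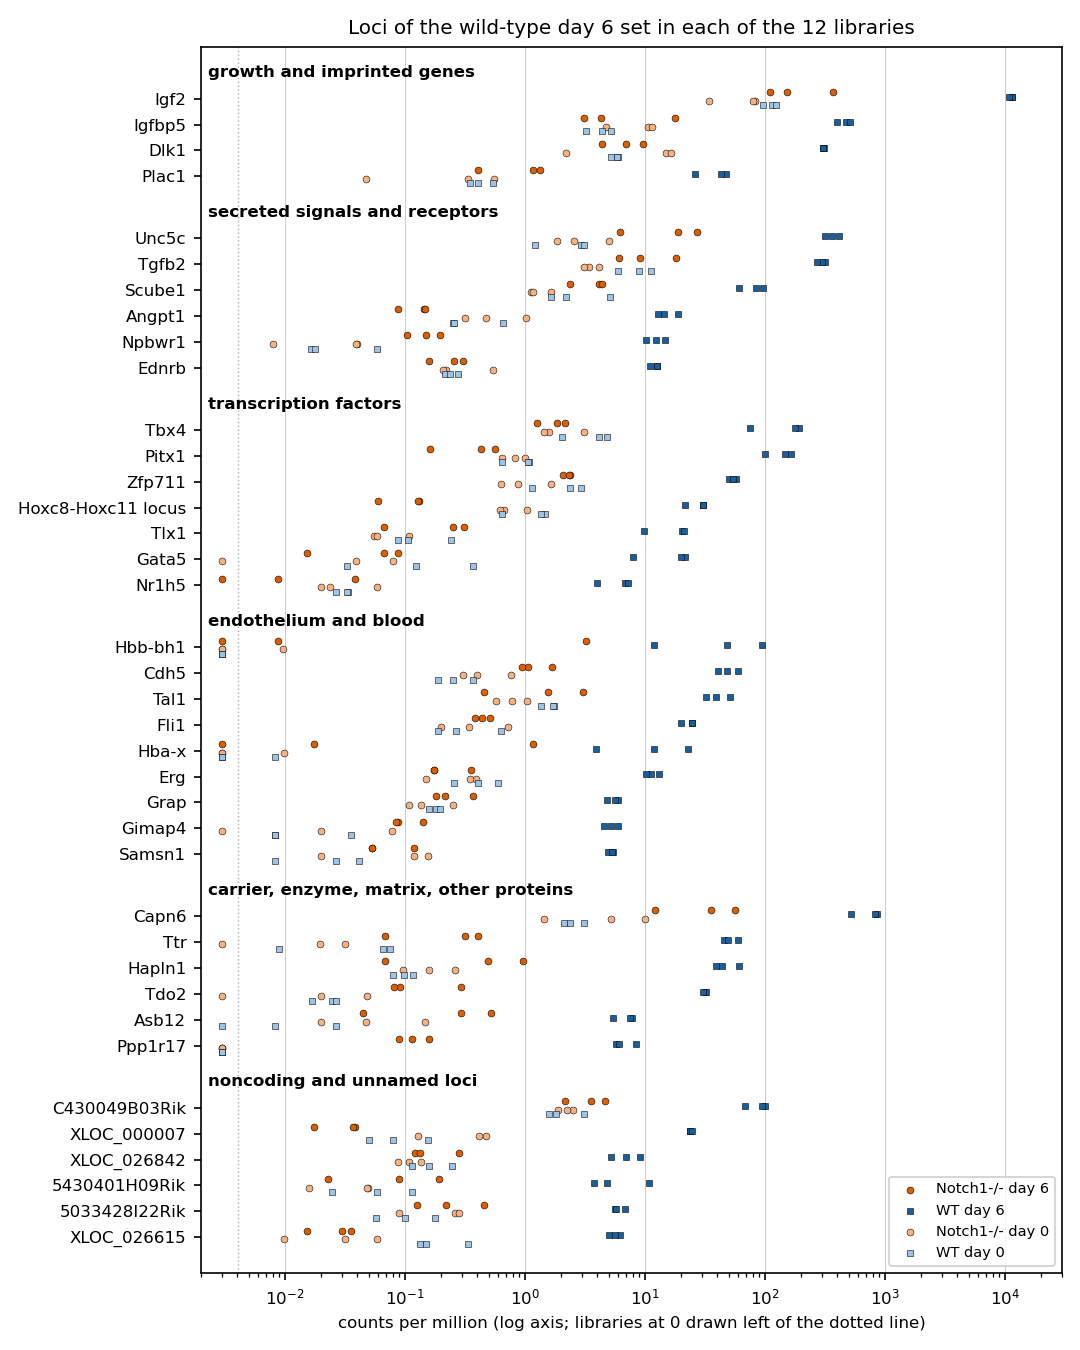
CPM on a log axis for each of the 38 loci, grouped by role, with 1 point per library (orange circles Notch1-/-, blue squares WT, dark day 6, pale day 0). In all 38 loci the lowest WT day 6 library lies above every other library.

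All 38 members had their lowest WT day 6 library above each of the other 9 libraries, as the plot of CPM by library shows. Since the rule asked for a wide gap, this is a description of the choice. The lowest WT day 6 library was at least 20 times the highest other library for 17 of 38 members, and the smallest such ratio was 3.34, for Hba-x. Most members were near 0 elsewhere, with mean values under 1 CPM for 25 members in Notch1-/- day 6, 28 in Notch1-/- day 0 and 26 in WT day 0 libraries, whereas Igf2 averaged 65.9 to 210.6 CPM in those groups. The group nearest to WT day 6 was Notch1-/- day 6 for 25 members, Notch1-/- day 0 for 7 and WT day 0 for 6. In bulk RNA fewer cells of a type and less RNA per cell cannot be told apart.

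Ratios of means, WT day 6 over the group named, set the edge of the set. Just inside the 20-fold limit stood Unc5c at 20.8, Capn6 at 21.2 and Grap at 21.3. Just outside it stood the merged Hoxd4, Hoxd3 and Hoxd1 locus at 19.6, 2610528A11Rik at 19.5 and Rfx6 at 19.2. Just inside the level limit stood Samsn1 at 5.26, Gimap4 at 5.26 and Grap at 5.47 CPM in WT day 6 libraries, and just outside it Oit3 at 4.93, Kcnk9 at 4.93 and the unnamed XLOC_033697 at 4.65 CPM. The values ran on without a gap at either limit, and the plot of ratios over each group shows where each member stood.

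**Figure D2:**
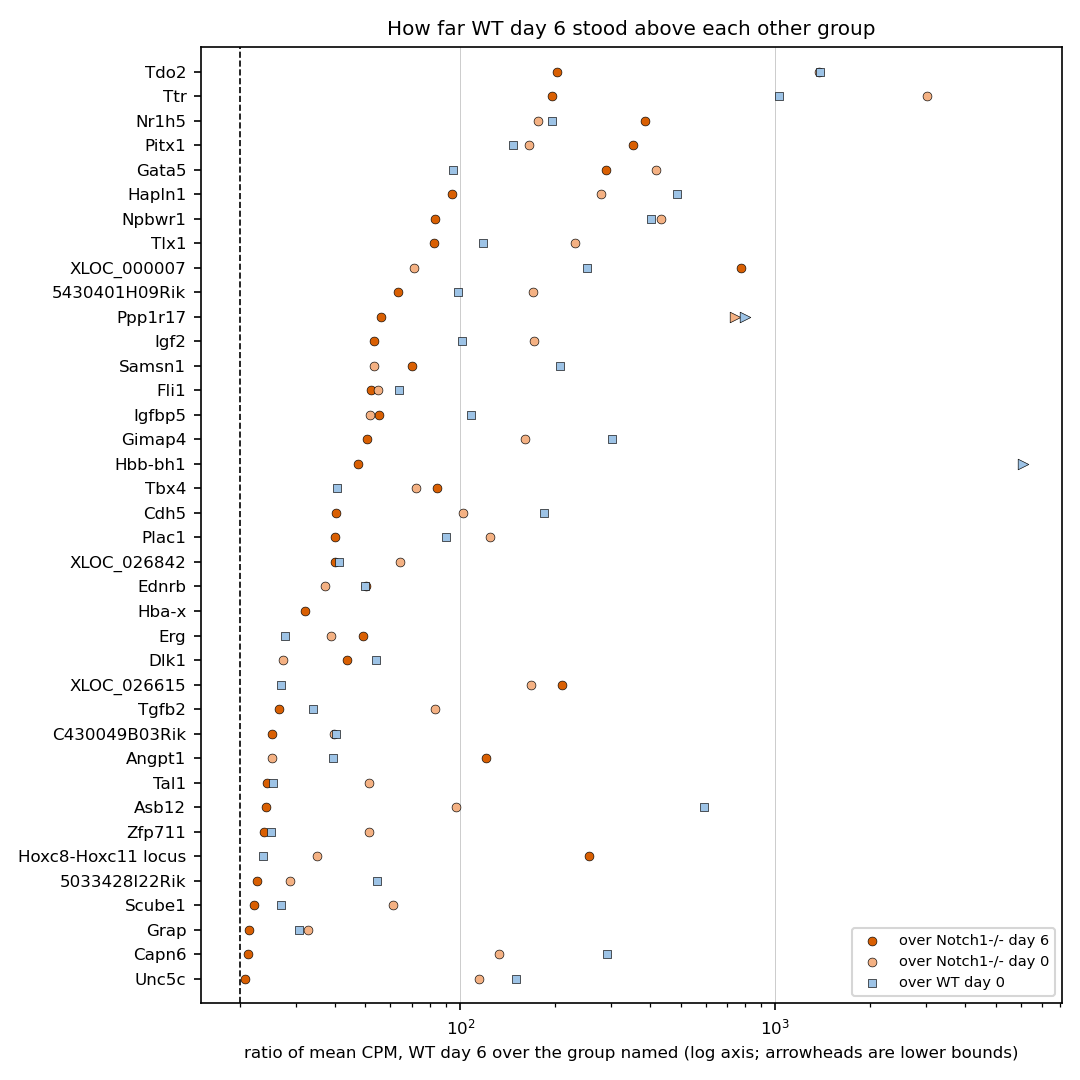
Ratio of mean CPM in WT day 6 over each other group (log axis) for the 38 loci, sorted by the smallest ratio, with the 20-fold limit dashed and arrowheads for lower bounds where a group had 0 counts; day 0 ratios of the globins that rest on 1 count are not drawn. The smallest ratio runs up to 203, for Tdo2, and Unc5c stands nearest the limit at 20.8.

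Igf2 (chr7:149836673-149846940, mm9), which encodes a fetal growth factor, had by far the most counts. It had 367, 154 and 111 CPM in Notch1-/- day 6, 11390, 11560 and 10800 CPM in WT day 6, 82.7, 34.6 and 80.4 CPM in Notch1-/- day 0, and 114, 97.5 and 123 CPM in WT day 0 libraries. The WT day 6 libraries lay within a narrow band, and the Notch1-/- day 6 libraries overlapped those of WT day 0. Igf2 took 77.7% of the summed CPM of the members in WT day 6. Its deposited FPKM, a level per length of transcript, is listed at 0 in all WT day 6 libraries, so no level per length can be given.

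Igfbp5 (chr1:72904506-72921744, mm9), a secreted protein that binds insulin-like growth factors, had 4.35, 3.10 and 17.7 CPM in Notch1-/- day 6, 477, 514 and 400 CPM in WT day 6, 10.6, 4.78 and 11.5 CPM in Notch1-/- day 0, and 5.20, 3.22 and 4.43 CPM in WT day 0 libraries. Outside WT day 6 the groups overlapped, and Notch1-/- day 6 library 3 was the highest. Dlk1 (chr12:110690452-110701546, mm9), an imprinted membrane protein related to Notch ligands, had 9.70, 6.99 and 4.38 CPM in Notch1-/- day 6, 306, 309 and 305 CPM in WT day 6, 2.23, 14.9 and 16.5 CPM in Notch1-/- day 0, and 5.21, 5.95 and 5.86 CPM in WT day 0 libraries. Its WT day 6 libraries were the tightest of any member, with a coefficient of variation of 0.597%. Plac1 (chrX:50423179-50593288, mm9), an X-linked gene needed for normal placental growth, had 1.17, 1.34 and 0.408 CPM in Notch1-/- day 6, 47.2, 43.6 and 26.04 CPM in WT day 6, 0.338, 0.0479 and 0.556 CPM in Notch1-/- day 0, and 0.351, 0.404 and 0.540 CPM in WT day 0 libraries. For each of these growth genes the Notch1-/- day 6 libraries overlapped those of at least 1 day 0 group.

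Of the secreted signals, Tgfb2 (chr1:188446624-188535761, mm9), a ligand of the TGF-beta family that acts in heart valve and limb formation, had 9.17, 18.3 and 6.13 CPM in Notch1-/- day 6, 319, 298 and 275 CPM in WT day 6, 3.44, 3.12 and 4.16 CPM in Notch1-/- day 0, and 11.3, 5.94 and 8.94 CPM in WT day 0 libraries. Angpt1 (chr15:42256271-42508341, mm9), a ligand that stabilises vessels, had 0.0883, 0.145 and 0.149 CPM in Notch1-/- day 6, 12.9, 14.6 and 18.9 CPM in WT day 6, 0.477, 0.319 and 1.03 CPM in Notch1-/- day 0, and 0.251, 0.256 and 0.664 CPM in WT day 0 libraries. Angpt1 was lowest of all in the Notch1-/- day 6 libraries, whereas Tgfb2 was lowest in Notch1-/- day 0. Scube1, a secreted protein of vessels and platelets, had 4.12, 4.42 and 2.37 CPM in Notch1-/- day 6, 84.2, 96.1 and 61.05 CPM in WT day 6, 1.12, 1.17 and 1.66 CPM in Notch1-/- day 0, and 5.096, 1.64 and 2.21 CPM in WT day 0 libraries.

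Among receptors, Unc5c (chr3:141128528-141497892, mm9), which receives netrin guidance cues, had 27.3, 19.1 and 6.25 CPM in Notch1-/- day 6, 412, 365 and 317 CPM in WT day 6, 1.85, 2.56 and 5.08 CPM in Notch1-/- day 0, and 2.96, 1.21 and 3.14 CPM in WT day 0 libraries. Ednrb, the endothelin receptor of neural crest cells, averaged 0.2402 ± 0.0735 CPM in Notch1-/- day 6, 12.1 ± 0.953 CPM in WT day 6, 0.324 ± 0.192 CPM in Notch1-/- day 0 and 0.243 ± 0.0307 CPM in WT day 0 libraries. Npbwr1, a receptor for the neuropeptides B and W, had 0.1501, 0.198 and 0.104 CPM in Notch1-/- day 6, 14.9, 12.3 and 10.2 CPM in WT day 6, 0.0398, 0.00798 and 0.03898 CPM in Notch1-/- day 0, and 0.0585, 0.0165 and 0.0177 CPM in WT day 0 libraries. Npbwr1 was linked to its locus through a single exon, a weaker link than exons between 2 introns.

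The transcription factors included regulators of the hindlimb and posterior body. Pitx1 (chr13:55926415-55932970, mm9), which gives the hindlimb its identity, had 0.565, 0.435 and 0.163 CPM in Notch1-/- day 6, 146, 164 and 99.7 CPM in WT day 6, 0.825, 0.646 and 1.01 CPM in Notch1-/- day 0, and 1.09, 0.644 and 1.05 CPM in WT day 0 libraries. Tbx4 (chr11:85699833-85729599, mm9), a T-box factor of the hindlimb bud and allantois, had 2.17, 1.85 and 1.26 CPM in Notch1-/- day 6, 194, 177 and 74.9 CPM in WT day 6, 1.59, 1.45 and 3.14 CPM in Notch1-/- day 0, and 4.85, 2.03 and 4.14 CPM in WT day 0 libraries. The merged Hoxc locus, of factors that pattern the posterior trunk, had 0.133, 0.130 and 0.0594 CPM in Notch1-/- day 6, 30.4, 30.6 and 21.7 CPM in WT day 6, 0.676, 0.622 and 1.05 CPM in Notch1-/- day 0, and 1.47, 0.644 and 1.37 CPM in WT day 0 libraries. The Hoxc locus shares 48.7% of its exon length with other loci. For Pitx1 and the Hoxc locus the Notch1-/- day 6 libraries were the lowest of the 12. In all 3, WT day 6 library 3 was the lowest of its group.

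Further factors were Gata5, Tlx1, Zfp711 and Nr1h5. Gata5 (chr2:180055582-180069384, mm9), an endoderm and heart factor, had 0.0883, 0.0152 and 0.0668 CPM in Notch1-/- day 6, 21.7, 19.99 and 7.97 CPM in WT day 6, 0.0795, 0 and 0.03898 CPM in Notch1-/- day 0, and 0.368, 0.03301 and 0.124 CPM in WT day 0 libraries. Tlx1, a homeobox factor required for the spleen, averaged 0.209 ± 0.127 CPM in Notch1-/- day 6, 17.3 ± 6.36 CPM in WT day 6, 0.0745 ± 0.0301 CPM in Notch1-/- day 0 and 0.146 ± 0.0838 CPM in WT day 0 libraries. Zfp711, an X-linked zinc finger protein, had 2.39, 2.09 and 2.32 CPM in Notch1-/- day 6, 58.05, 50.2 and 54.5 CPM in WT day 6, 0.636, 1.66 and 0.877 CPM in Notch1-/- day 0, and 2.39, 2.96 and 1.15 CPM in WT day 0 libraries. Nr1h5, a nuclear receptor related to the bile acid receptor, averaged 0.0157 ± 0.01996 CPM in Notch1-/- day 6, 6.04 ± 1.81 CPM in WT day 6, 0.0341 ± 0.0212 CPM in Notch1-/- day 0 and 0.031 ± 0.00384 CPM in WT day 0 libraries. Nr1h5 had 6 counts in all over the Notch1-/- day 6 libraries, so its ratio of 386 there has wide counting error.

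Endothelial members were Cdh5, Fli1 and Erg. Cdh5 (chr8:106625525-106668403, mm9), the adhesion protein of endothelial junctions, had 1.07, 0.953 and 1.67 CPM in Notch1-/- day 6, 60.3, 48.0 and 41.0 CPM in WT day 6, 0.308, 0.399 and 0.760 CPM in Notch1-/- day 0, and 0.251, 0.190 and 0.372 CPM in WT day 0 libraries. Fli1, an ETS factor of endothelium and blood, averaged 0.447 ± 0.0631 CPM in Notch1-/- day 6, 23.2 ± 2.75 CPM in WT day 6, 0.424 ± 0.275 CPM in Notch1-/- day 0 and 0.365 ± 0.239 CPM in WT day 0 libraries. Erg, a related ETS factor, averaged 0.236 ± 0.104 CPM in Notch1-/- day 6, 11.6 ± 1.44 CPM in WT day 6, 0.297 ± 0.1297 CPM in Notch1-/- day 0 and 0.419 ± 0.169 CPM in WT day 0 libraries. Cdh5 and Fli1 were nearest to WT day 6 in Notch1-/- day 6 libraries, and Erg in WT day 0 libraries. Tal1 (chr4:114729357-114744416, mm9), a regulator that starts the blood lineage, had 1.56, 0.458 and 3.03 CPM in Notch1-/- day 6, 51.5, 39.0 and 32.5 CPM in WT day 6, 0.576, 1.05 and 0.780 CPM in Notch1-/- day 0, and 1.37, 1.75 and 1.72 CPM in WT day 0 libraries. The Notch1-/- day 6 libraries thus spanned a range that held all 6 day 0 libraries for Tal1.

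The embryonic globins varied most between libraries. Hbb-bh1 (chr7:110990152-110991676, mm9), an embryonic beta-like globin, had 0.00883, 0 and 3.26 CPM in Notch1-/- day 6 and 95.3, 48.1 and 11.9 CPM in WT day 6 libraries. Hba-x (chr11:32176600-32178115, mm9), the embryonic alpha-like globin, had 0.0177, 0 and 1.18 CPM in Notch1-/- day 6 and 22.7, 11.95 and 3.94 CPM in WT day 6 libraries. For both, library 1 was the highest and library 3 the lowest of WT day 6, and in the Notch1-/- day 6 group both were near 0 except in library 3. Day 0 libraries together held 1 count of Hbb-bh1 in Notch1-/- and 0 in WT, and 1 count of Hba-x in each genotype. Taking 3 counts over the group as the floor, Hbb-bh1 was at least 6100-fold higher in WT day 6 than in WT day 0, a bound for counting error only. Tal1 in Notch1-/- day 6 was also highest in library 3. Reads shared between globin copies may have been split, so these levels are uncertain.

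**Figure D3:**
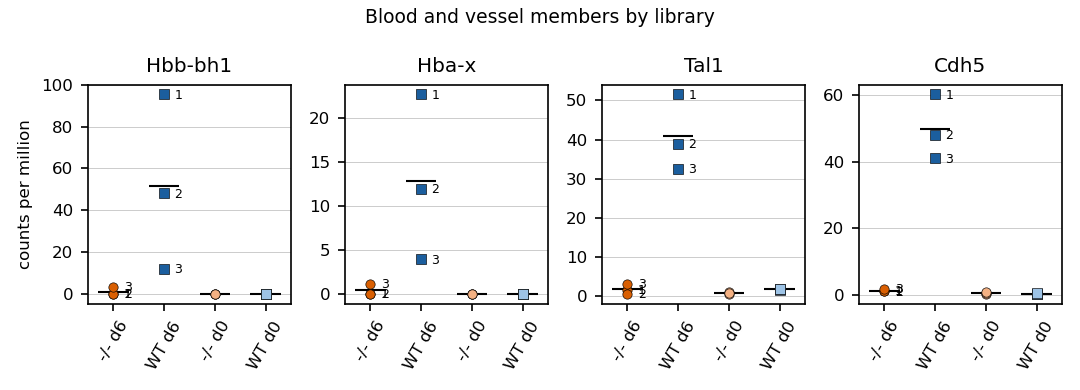
CPM (linear axes from near 0) of Hbb-bh1, Hba-x, Tal1 and Cdh5 in each library, with a bar at each group's mean and the library number beside the day 6 points. Hbb-bh1 runs from 95.3 down to 11.9 CPM among WT day 6 libraries, and in Notch1-/- day 6 reaches 3.26 CPM in library 3 alone.

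Adaptor and immune-type members stood near the level limit. Grap, an adaptor in lymphocyte signalling, averaged 0.256 ± 0.1004 CPM in Notch1-/- day 6, 5.47 ± 0.573 CPM in WT day 6, 0.166 ± 0.0767 CPM in Notch1-/- day 0 and 0.178 ± 0.0183 CPM in WT day 0 libraries. Gimap4, a GTPase of lymphocytes, averaged 0.104 ± 0.0318 CPM in Notch1-/- day 6, 5.26 ± 0.747 CPM in WT day 6, 0.0326 ± 0.0405 CPM in Notch1-/- day 0 and 0.0174 ± 0.0157 CPM in WT day 0 libraries. Samsn1, an adaptor of blood cells, averaged 0.0751 ± 0.0379 CPM in Notch1-/- day 6, 5.26 ± 0.282 CPM in WT day 6, 0.0985 ± 0.0705 CPM in Notch1-/- day 0 and 0.0254 ± 0.0165 CPM in WT day 0 libraries.

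Ttr (chr18:20823751-20832827, mm9), the thyroid hormone and retinol carrier secreted by visceral endoderm and liver, had 0.406, 0.0686 and 0.319 CPM in Notch1-/- day 6, 46.0, 59.6 and 49.7 CPM in WT day 6, 0, 0.0319 and 0.0195 CPM in Notch1-/- day 0, and 0.0752, 0.0660 and 0.00886 CPM in WT day 0 libraries. Tdo2 (chr3:81762336-81779650, mm9), the enzyme that opens the tryptophan ring, had 0.291, 0.0915 and 0.0817 CPM in Notch1-/- day 6, 31.6, 32.7 and 30.3 CPM in WT day 6, 0.0199, 0 and 0.0487 CPM in Notch1-/- day 0, and 0.0167, 0.0248 and 0.0266 CPM in WT day 0 libraries. Ttr and Tdo2 had the 2 highest smallest ratios of the set, 195 and 203, each against Notch1-/- day 6. Hapln1 (chr13:89680175-89751443, mm9), which links hyaluronan to proteoglycans in matrix, had 0.494, 0.0686 and 0.973 CPM in Notch1-/- day 6, 60.6, 44.3 and 39.5 CPM in WT day 6, 0.159, 0.0958 and 0.263 CPM in Notch1-/- day 0, and 0.117, 0.09904 and 0.0797 CPM in WT day 0 libraries.

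Capn6 (chrX:140236780-140261955, mm9), a calpain without protease activity that binds microtubules, had 56.6, 35.97 and 12.1 CPM in Notch1-/- day 6, 857, 837 and 526.5 CPM in WT day 6, 10.02, 1.45 and 5.19 CPM in Notch1-/- day 0, and 3.09, 2.14 and 2.37 CPM in WT day 0 libraries. Per length Capn6 had the highest deposited FPKM of the members in WT day 6, a mean of 134.7, followed by Hbb-bh1 at 76.9, Igfbp5 at 52.6, Dlk1 at 44.5 and Tgfb2 at 44.1 FPKM. Ppp1r17, an inhibitor of protein phosphatase, had 0.159, 0.114 and 0.0891 CPM in Notch1-/- day 6, 5.81, 6.14 and 8.41 CPM in WT day 6, and 0 counts in the day 0 libraries of both genotypes. Its level in WT day 6 was at least 743-fold higher than in Notch1-/- day 0 and at least 800-fold higher than in WT day 0, against a floor of 3 counts over the group. Asb12, a substrate adaptor of ubiquitin ligases, averaged 0.285 ± 0.237 CPM in Notch1-/- day 6, 6.89 ± 1.25 CPM in WT day 6, 0.0713 ± 0.0663 CPM in Notch1-/- day 0 and 0.0116 ± 0.0136 CPM in WT day 0 libraries.

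The noncoding C430049B03Rik, host of the Mir322, Mir503 and Mir351 hairpins shown above, had 4.65, 3.58 and 2.18 CPM in Notch1-/- day 6, 100.3, 94.6 and 68.7 CPM in WT day 6, 1.88, 2.53 and 2.25 CPM in Notch1-/- day 0, and 1.82, 3.14 and 1.60 CPM in WT day 0 libraries. The day 0 groups overlapped, and Notch1-/- day 6 overlapped both. Its cluster partner Plac1 lay 12.8 kb away on the same strand, and Hprt lay 29.2 kb away on its other side on the opposite strand. Hprt, which was higher in Notch1-/- cells on both days, ran opposite to the cluster at day 6. Whether the difference in Hprt bears on the cluster was not tested.

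The remaining noncoding and unnamed members were low. The locus of 5430401H09Rik averaged 0.102 ± 0.0864 CPM in Notch1-/- day 6, 6.48 ± 3.76 CPM in WT day 6, 0.0381 ± 0.0192 CPM in Notch1-/- day 0 and 0.0661 ± 0.0457 CPM in WT day 0 libraries. The locus of 5033428I22Rik averaged 0.269 ± 0.172 CPM in Notch1-/- day 6, 6.09 ± 0.611 CPM in WT day 6, 0.212 ± 0.106 CPM in Notch1-/- day 0 and 0.112 ± 0.0605 CPM in WT day 0 libraries, and shares 66.2% of its exon length with other loci, so its counts are unreliable. XLOC_000007 (chr1:5286117-5303987, mm9), classed as intergenic in the deposited models, had 0.0177, 0.0381 and 0.0371 CPM in Notch1-/- day 6, 23.8, 23.8 and 24.8 CPM in WT day 6, 0.129, 0.471 and 0.419 CPM in Notch1-/- day 0, and 0.0501, 0.157 and 0.0797 CPM in WT day 0 libraries. Its ratio of 780 over Notch1-/- day 6 was the highest of the set against that group. XLOC_026842 (chr5:72954737-72965663, mm9) averaged 0.179 ± 0.0895 CPM in Notch1-/- day 6, 7.16 ± 1.98 CPM in WT day 6, 0.111 ± 0.0244 CPM in Notch1-/- day 0 and 0.174 ± 0.0676 CPM in WT day 0 libraries. XLOC_026615 (chr5:14911457-14941881, mm9) had 0.0353, 0.0152 and 0.0297 CPM in Notch1-/- day 6, 5.08, 6.16 and 5.599 CPM in WT day 6, 0.00994, 0.0319 and 0.0585 CPM in Notch1-/- day 0, and 0.134, 0.338 and 0.151 CPM in WT day 0 libraries, and lies among the near-identical copies of the Speer4 family, which may share its reads.

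Across the set, library 3 was the lowest of the WT day 6 libraries for 29 members and library 1 the highest for 22. The coefficient of variation among WT day 6 libraries ran from 0.597% for Dlk1 to 80.8% for Hbb-bh1, with a median of 18.6%. Without Igf2 the members summed to 68.3 to 129.7 CPM in Notch1-/- day 6, 2608 to 3611 CPM in WT day 6, 38.1 to 59.3 CPM in Notch1-/- day 0 and 34.1 to 49.4 CPM in WT day 0 libraries. Deposited FPKM values put WT day 6 highest for 37 members and at least 20 times every other group for 32. The other 6 were Igf2, Unc5c, Zfp711, the Hoxc locus, 5033428I22Rik and XLOC_026842. Mean FPKM of the Hoxc locus was 22.45 in WT day 6 and 2.57 in Notch1-/- day 0. That of XLOC_026842 was 1.36 in WT day 6 and 0.322 in Notch1-/- day 6. Zfp711 was listed at 0 FPKM in WT day 6 library 1.

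The rule did not compare Notch1-/- day 6 with Notch1-/- day 0, but it limited the mean of each to 1/20 of that in WT day 6, so the values below describe the members and nothing is read from their counts. With edgeR's quasi-likelihood test over 23991 loci, 13 of 38 members were higher and 4 lower at Benjamini-Hochberg adjusted p under 0.05, where 17.2% of all tested loci were higher and 18.7% lower, or 35.9% in either direction. The remaining 21 members were not called.

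The 13 loci higher in Notch1-/- day 6 had differing roles. Among signals and receptors, Unc5c had a log2 change of 2.44 ± 0.50 (SE), Npbwr1 2.37 ± 0.52, Igf2 1.66 ± 0.38, Tgfb2 1.62 ± 0.32 and Scube1 1.43 ± 0.36. The calpain Capn6 had 2.65 ± 0.59 and the adhesion protein Cdh5 1.29 ± 0.35. The carrier Ttr had 3.74 ± 0.80 and the enzyme Tdo2 2.73 ± 0.69, at values under 0.5 CPM in every library of both groups. The zinc finger gene Zfp711 had 1.03 ± 0.38, a call lost in 12 of the alternative settings, among them without any 1 of 9 libraries. Ppp1r17 held 45 counts over the Notch1-/- day 6 libraries and 0 over those of Notch1-/- day 0, at least 13.2-fold higher against the floor of 3 counts. Hbb-bh1 and Hba-x were also called, but their libraries overlapped, 440 and 161 counts lay almost wholly in library 3, and neither call held without that library or without any 1 of the 3 Notch1-/- day 0 libraries.

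The 4 loci lower in Notch1-/- day 6 were the Hoxc locus, XLOC_000007, Angpt1 and Pitx1. The Hoxc locus had a log2 change of -2.90 ± 0.39, the unnamed XLOC_000007 -3.46 ± 0.58 and Angpt1 -2.27 ± 0.49. Pitx1 had -1.13 ± 0.37, and this call was lost without Notch1-/- day 6 library 2, without Notch1-/- day 6 library 3 and without Notch1-/- day 0 library 3. Feeder fibroblast markers moved with this comparison, at 237 to 310 CPM in Notch1-/- day 6 and 905 to 4930 CPM in Notch1-/- day 0 libraries for the summed list of 24 genes. Their part in these lower values was not tested. Lox and Il1rl1 were picked from this list after their values were seen and do not stand for it. Lox averaged 1.87 CPM in Notch1-/- day 6, 1.33 CPM in WT day 6, 201 CPM in Notch1-/- day 0 and 229 CPM in WT day 0 libraries. Il1rl1 averaged 0.227 CPM in Notch1-/- day 6, 0.054 CPM in WT day 6, 129.7 CPM in Notch1-/- day 0 and 55.9 CPM in WT day 0 libraries. The summed list was higher in WT day 6 than in Notch1-/- day 6 libraries, at 1210 to 1650 CPM, where Col1a1 alone averaged 736 CPM. With edgeR, 3 of the 24 genes were higher and 9 lower in Notch1-/- day 6 than in WT day 6.

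**Figure D4:**
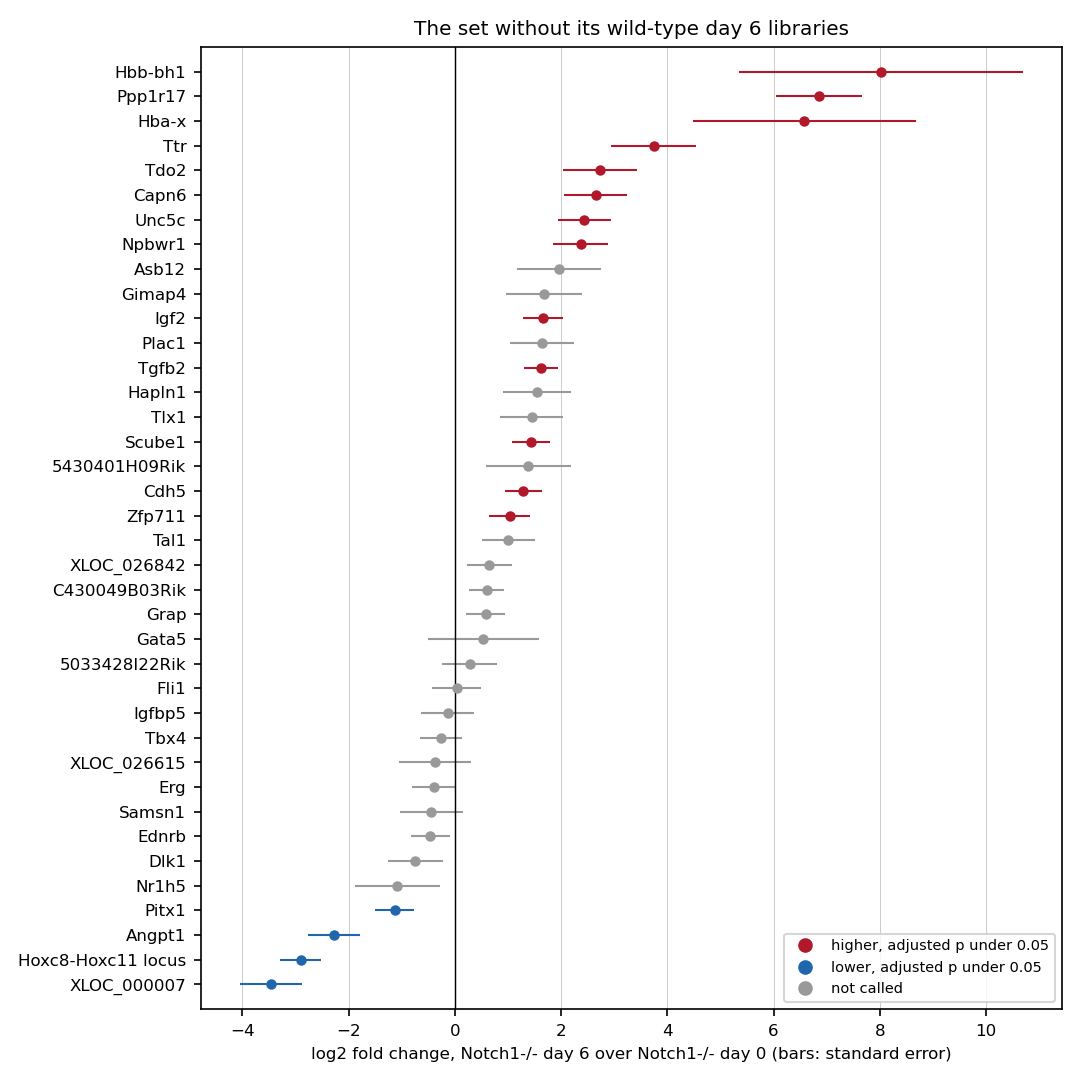
Log2 fold change with its standard error for each of the 38 loci, Notch1-/- day 6 over Notch1-/- day 0, with called loci in colour. The point of Ppp1r17, at 0 counts on day 0, depends on the fit and is no measure of its size. Loci run from Hbb-bh1 at 8.02 down to XLOC_000007 at -3.46, with 13 called higher and 4 called lower.

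The rule also kept the means of both day 0 groups low, so their comparison is likewise a description. Comparing Notch1-/- day 0 with WT day 0 with edgeR, 1 of 38 members was higher and 2 lower, where 3.71% of all tested loci were higher and 5.86% lower, or 9.56% in either direction, and so the share of members called was near that of all loci. XLOC_000007 was higher, with a log2 difference of 1.95 ± 0.50 (SE), a call lost without Notch1-/- day 0 library 2 or 3 or WT day 0 library 1 or 3. Tgfb2 was lower at -1.14 ± 0.32, a call lost in 12 alternative settings, among them without any 1 of the 3 Notch1-/- day 0 libraries or WT day 0 library 1 or 3. XLOC_026615 was lower at -2.49 ± 0.56, a call lost without Notch1-/- day 0 library 2. Neither member of the X cluster was called: C430049B03Rik had 0.14 ± 0.33 and Plac1 -0.38 ± 0.61. Igf2 had -0.65 ± 0.37 and was not called either. Beside Dlk1, the merged Rian and Meg3 locus, not a member, averaged 44.55 ± 29.7 CPM in Notch1-/- day 0 and 490.5 ± 63.6 CPM in WT day 0 libraries. Its log2 difference was -3.32 ± 0.46 (edgeR adjusted p = 0.000866), and it shares 62.8% of its exon length with other loci. Of all 148 tested loci within 100 kb of a member, 3 were higher and 10 lower in this comparison.

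Genes beside the members were not chosen by their own values, but by their position near loci chosen for high WT day 6 values. Those that overlap a member may share its reads. Their counts are therefore descriptions too. Within 100 kb of a member lay 81 tested loci that were linked to a gene and shared under 50% of their exon length. Comparing WT day 6 with WT day 0, 44 of these were higher (54.3%) and 7 lower (8.64%), where 18.4% of all tested loci were higher and 24.7% lower, or 43.1% in either direction. Comparing Notch1-/- day 6 with WT day 6, 9 were higher (11.1%) and 39 lower (48.1%), where 13.7% of all tested loci were higher and 14.4% lower, or 28.1% in either direction. The 2 comparisons share the WT day 6 libraries, which also chose the members. The shares of all tested loci include loci linked to no gene, unlike the neighbours counted here. This distance was chosen after the members were known.

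H19, the imprinted noncoding RNA 72.6 kb from Igf2, averaged 0.628 ± 0.457 CPM in Notch1-/- day 6 and 545 ± 33.5 CPM in WT day 6 libraries, a log2 difference of -9.75 ± 0.85 (SE; edgeR adjusted p = 8.85e-06). Igf2os, antisense to Igf2, averaged 11.04 ± 7.14 and 141 ± 4.30 CPM in the same groups, and the strand setting of the counting is not given, so its reads and those of Igf2 cannot be told apart. Vcan, a matrix proteoglycan 43.4 kb from Hapln1, averaged 92.9 ± 23.4 CPM in Notch1-/- day 6 and 748 ± 101 CPM in WT day 6 libraries (log2 -2.98 ± 0.28). Both bind hyaluronan, and both were high in WT day 6. Ctso, a protease 1.69 kb from Tdo2, averaged 3.36 ± 0.455 and 26.01 ± 2.58 CPM (log2 -2.92 ± 0.38). Gucy1b1, a subunit of the nitric oxide receptor 56.3 kb from Tdo2, averaged 2.19 ± 0.147 and 18.1 ± 3.32 CPM (log2 -3.02 ± 0.33).

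Of the 4 globin loci tested beside Hba-x and Hbb-bh1, 2 were lower in Notch1-/- day 6 and 2 were not called. Hba-a1, an adult alpha globin 5.56 kb from Hba-x, averaged 0.136 ± 0.0923 CPM in Notch1-/- day 6 and 2.07 ± 1.62 CPM in WT day 6 libraries, and Hbb-y, an embryonic globin 6.74 kb from Hbb-bh1, averaged 0.203 ± 0.352 and 3.67 ± 2.91 CPM. Not called were the merged Hbq1b, Hba-a2 and Hbq1a locus, at 0.788 ± 0.245 CPM in Notch1-/- day 6 and 0.548 ± 0.231 CPM in WT day 6 libraries, and Hbb-bs, at 0.0297 ± 0.0515 and 0.272 ± 0.0827 CPM. Gimap6, 9.29 kb from Gimap4, averaged 0.0126 ± 0.0116 CPM in Notch1-/- day 6 and 1.11 ± 0.136 CPM in WT day 6 libraries (log2 -6.26 ± 0.78). Nfxl1, 3.85 kb from the unnamed XLOC_026842, averaged 99.1 ± 8.44 and 352 ± 56.4 CPM (log2 -1.80 ± 0.17). Not every neighbour was lower. Igfbp2, beside Igfbp5, was not called, with a log2 difference of 0.31 ± 0.27, and Bmpr1b, beside Unc5c, was higher in Notch1-/- day 6 at 1.91 ± 0.56 (edgeR adjusted p = 0.0227).

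**Figure D5:**
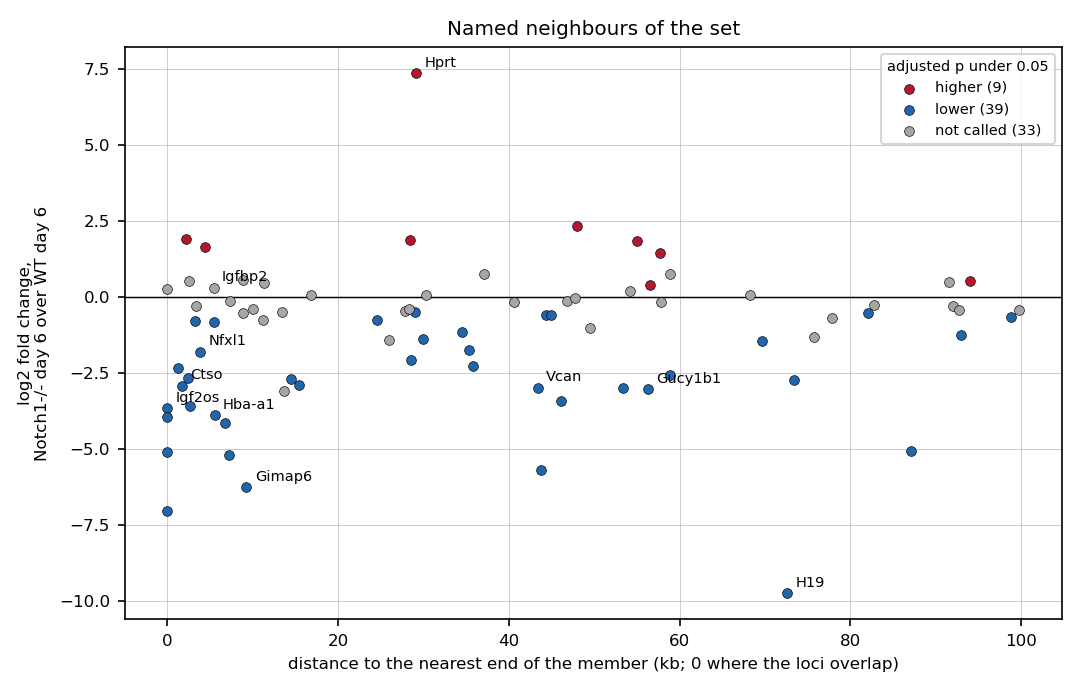
Log2 fold change, Notch1-/- day 6 over WT day 6, of the 81 named neighbours against their distance from the member in kb. Most called neighbours lie below 0 (39 lower, 9 higher) at all distances, with H19 lowest at -9.75 and Hprt highest at 7.38.

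Lists of genes for the same programmes describe other genes of each programme, members left out. These lists were chosen with earlier results of these data known. Genes named from them were chosen for a small p in edgeR's comparison of WT day 6 with WT day 0. That choice used the same WT day 6 libraries. The counts and values below are therefore descriptions and support nothing about the set. In Notch1-/- day 6 against WT day 6, 13.7% of all tested loci were higher and 14.4% lower. Of 27 visceral endoderm and yolk sac genes tested beside Ttr, 2 were higher and 18 lower in Notch1-/- day 6 than in WT day 6, with a median log2 difference of -1.95, where that of all tested loci was 0.01. Apob, the lipoprotein core protein, averaged 8.21 ± 3.55 CPM in Notch1-/- day 6 and 129.6 ± 23.5 CPM in WT day 6 libraries, and Rbp4, the retinol carrier, 2.17 ± 0.517 and 29.0 ± 8.29 CPM. Gata6, an endoderm factor, averaged 55.8 ± 23.7 and 102 ± 8.56 CPM and was not called. Of 16 allantois, hindlimb and lateral mesoderm genes beside Pitx1, Tbx4 and Gata5, 0 were higher and 11 lower with edgeR, with a median of -2.79. Tbx20, a heart and mesoderm factor, averaged 22.1 ± 13.1 and 266 ± 66.7 CPM, Isl1, a hindlimb and heart progenitor factor, 5.21 ± 3.08 and 53.8 ± 7.77 CPM, and Bmp5, a bone morphogenetic protein, had 19.5, 9.81 and 3.71 CPM in Notch1-/- day 6 and 74.4, 76.5 and 75.1 CPM in WT day 6 libraries. All 3 were called lower.

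Of 18 endothelial genes beside Cdh5, Fli1 and Erg, 1 was higher and 10 lower in Notch1-/- day 6, with a median of -0.98. For this and the lists that follow, 13.7% of all tested loci were higher and 14.4% lower. Kdr, the main VEGF receptor, averaged 179 ± 96.1 CPM in Notch1-/- day 6 and 252 ± 68.0 CPM in WT day 6 libraries and was not called, whereas Emcn, a sialomucin of vessels, averaged 0.0173 ± 0.0300 and 1.57 ± 0.523 CPM (log2 -6.34 ± 0.85). Of 15 blood genes beside Tal1, Hba-x and Hbb-bh1, 1 was higher and 9 lower, with a median of -1.90. Among the lower was Runx1, a factor of blood stem cells, at 13.6 ± 6.42 and 53.1 ± 3.14 CPM. The lower genes also include the globins Hba-a1 and Hbb-y, already described as neighbours. Of 23 imprinted genes beside Igf2 and Dlk1, 0 were higher and 13 lower with edgeR, with a median of -1.11. Among these Igf2r, which clears Igf2 from the cell surface, averaged 297 ± 25.7 and 1701 ± 14.1 CPM, Zim1 19.1 ± 6.997 and 361 ± 54.7 CPM, and Peg3 1256 ± 415 and 3216 ± 337 CPM. Of 12 IGF system genes 1 was higher and 4 lower (median -0.37), and of 12 loci of the Hox list 3 were higher and 8 lower (median -2.38). That list of 44 genes also named Cdx genes and Hox noncoding RNAs. Its 26 genes in merged loci were not counted, so the 12 loci do not stand for the Hox clusters.

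Of 19 Notch pathway genes tested beside Dlk1, 4 were higher and 4 lower in Notch1-/- day 6, with a median of -0.07, where 13.7% of all tested loci were higher and 14.4% lower. Notch1 itself, whose genotype defines the groups, is among those lower (log2 -2.58 ± 0.30). Hey2, a Notch target in vessels and heart, averaged 2.596 ± 0.7895 CPM in Notch1-/- day 6 and 45.4 ± 10.03 CPM in WT day 6 libraries (log2 -4.10 ± 0.40). Hey1 averaged 19.4 ± 6.73 and 23.9 ± 4.85 CPM and Rbpj, the DNA-binding partner of Notch, 31.0 ± 3.14 and 29.4 ± 2.27 CPM, and neither was called. Lists with no member follow. Of 17 smooth muscle genes 1 was higher and 7 lower in Notch1-/- day 6. Among the lower was Rgs5, at 31.4 ± 20.6 and 174 ± 48.2 CPM. Of 13 parietal endoderm genes 1 was higher and 9 lower. Among the lower was Col4a1, at 161 ± 26.4 and 590.0 ± 12.3 CPM. Beside Hapln1, 24 of 34 matrix genes were lower and 0 higher with edgeR, with a median of -1.78. Beside Ednrb, 4 of 13 neural genes were lower and 3 higher. Cardiomyocyte genes, with no member, had 5 higher and 7 lower of 18, trophoblast genes 1 and 3 of 9, feeder genes 3 and 9 of 24, and naive pluripotency genes 5 and 0 of 14.

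RefSeq promoter windows, of 250 bases before and 50 after a gene's start, were found for 22 of 38 member gene symbols and for 27025 genes in all. They were searched on both strands for 6 motifs. A gene counted once if any of its windows held the motif. The TATA box (TATAAA) was in 22.7% of member genes and 15.7% of all genes, the GATA motif (AGATAA) in 22.7% and 12.7%, the RBPJ core (TGGGAA) in 36.4% and 28.3%, the T-box core (AGGTGT) in 22.7% and 15.7%, the Pitx core (TAATCC) in 18.2% and 8.14%, and the caudal and posterior Hox core (TTTATN) in 54.5% and 43.8%. TTTATN overlaps TATAAA read on the other strand. Members such as Igf2 and Erg have several windows, and among genes with 1 window the GATA motif was in 11.8% of 17 member genes and 11.5% of 22862 genes, the RBPJ core in 23.5% and 25.5%, and the TATA box in 23.5% and 14.8%. A match is a description of letters and not of binding.

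The promoters of 3 members are shown as examples from the blood and signal members, for the globin Hba-x, for Tal1 and for Tgfb2. They are RefSeq windows in GRCm38.p6, at chr11:32276350-32276649 (plus strand), chr4:115056176-115056475 (plus strand, 1 of 2 windows of Tal1) and chr1:186705940-186706239 (minus strand). Capitals mark matches to the first 5 motifs above on either strand, and positions count from the start base as 0 to the first base of the match.
Hba-x promoter: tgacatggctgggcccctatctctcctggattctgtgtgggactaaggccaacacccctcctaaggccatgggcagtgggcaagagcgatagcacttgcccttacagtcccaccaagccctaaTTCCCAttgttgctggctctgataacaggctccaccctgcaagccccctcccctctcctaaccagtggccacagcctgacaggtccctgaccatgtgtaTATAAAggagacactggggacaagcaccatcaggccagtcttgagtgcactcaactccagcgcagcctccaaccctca
Tal1 promoter: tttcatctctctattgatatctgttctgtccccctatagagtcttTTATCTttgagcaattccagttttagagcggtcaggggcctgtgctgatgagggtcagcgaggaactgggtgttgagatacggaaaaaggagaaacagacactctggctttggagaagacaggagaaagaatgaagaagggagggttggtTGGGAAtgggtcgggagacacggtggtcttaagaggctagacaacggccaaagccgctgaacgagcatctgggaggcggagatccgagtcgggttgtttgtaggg
Tgfb2 promoter: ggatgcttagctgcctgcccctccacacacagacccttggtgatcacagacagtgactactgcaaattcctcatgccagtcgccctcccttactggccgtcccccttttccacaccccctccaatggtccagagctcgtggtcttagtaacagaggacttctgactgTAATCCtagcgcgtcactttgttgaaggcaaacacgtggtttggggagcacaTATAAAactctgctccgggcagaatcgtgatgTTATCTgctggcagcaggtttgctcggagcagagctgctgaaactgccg
Hba-x and Tgfb2 hold TATAAA just before the start, at -28 and -31. Tal1 holds the GATA motif at -205 on the other strand and TGGGAA at -55. Tgfb2 holds the GATA motif on the other strand at 1 and the Pitx core at -83.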

How the data were processed

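Poly(A) RNA was measured in 12 libraries. The submitters' processing notes list HTSeq 0.5.4p3, DESeq, TopHat2 2.0.8 and Cufflinks 2.1.1, with mm9, but give neither roles nor settings. How strand was treated is likewise not given in the sources used here. Whole-number counts for each locus were deposited without normalization. FPKM values, which the authors scaled by length and depth, were deposited for the same loci, with a file of transcript models in mm9 coordinates. The deposited counts sum to 100637179 to 134662426 per library. Chi-square per degree of freedom between the replicate counts of a group was 48.2 to 295. Counting error is thus small beside the spread within a group except at a few counts. This value covers a whole group, so it speaks for no pair of libraries. It cannot tell separate cultures from repeated preparations of 1 culture. Floors of 3 counts cover counting error only.

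CPM was computed from column sums over all 40039 loci. The members and all gene lists were chosen with earlier results of these data known. Gene names were inferred: exons flanked by 2 introns were matched by length to GENCODE vM21 (GRCm38), with introns of at least 200 bases and single exons added where they fitted the local shift between builds within 2000 bases. No coordinates were converted. This linked 20706 loci, 1797 of them to several genes. Moving the shift by 1 Mb gave 25 false intron and 2 false single-exon matches, and looking on the next chromosome gave 3 false exon matches. MicroRNA hairpins were placed by their length and offset from matched exons.

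Tests used edgeR 4.0.16 (R 4.3.3) quasi-likelihood fits on the counts of all 12 libraries with TMM scaling and the default filter, which left 23991 loci, with 1 mean per group. Benjamini-Hochberg adjusted p under 0.05 over all loci was called. Each SE of a log2 value was derived from the test, as the absolute log2 value divided by the square root of the F statistic. The script was tested on simulated data. Deviations from group means correlated at 0.398, 0.275 and 0.165 between same-numbered libraries of Notch1-/- day 0 and WT day 0. In the other compared groups some were under 0.1. Notch1-/- day 6 and WT day 0, which were not compared, had 0.227, 0.18 and 0.125. Values for unlike-numbered libraries are not given, so whether libraries were paired is not settled. The main fits used no replicate block. DESeq2 1.42.0, other scalings, filters, a replicate block and leaving out libraries were alternatives. Named genes were Notch1, members of high level, in clusters, on lists or called, loci at the thresholds, and list genes among the 5 with the smallest p in WT day 6 against WT day 0. Feeder genes beside the calls, Hprt, and single neighbours were chosen after their values were seen. Neighbours and their distance were chosen after the members had been seen. Python's matplotlib drew the figures.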

Additional observations from a re-analysis of the deposited data

Results flagged for a closer look

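For 19 of 30 named genes outside the set, the change over 6 days differed between genotypes by edgeR's interaction test, where 11.3% of all tested loci did (6.36% positive and 4.92% negative). The 30 genes were named for a strong change in WT cells or after their values were seen, so their count and direction support nothing, and each value is a description of its gene. Values are the log2 change of day 6 over day 0 in Notch1-/- cells minus that in WT cells, with no explanation weighed. Among neighbours of the members, H19 had -8.83, Gimap6 -6.53, Hba-a1 -6.37, Igf2os -4.29, Vcan -2.99, Ctso -2.66, Gucy1b1 -2.41 and Nfxl1 -1.82, while Hprt had 3.10. Among genes of the lists, Tbx20 had -6.34, Apob -4.43, Rbp4 -4.00, Hey2 -3.73, Zim1 -3.63, Bmp5 -3.35, Isl1 -2.29, Runx1 -2.28, Igf2r -2.11 and Col4a1 -1.75. The adjusted p-values of these edgeR tests ran up to 0.0252, for Isl1.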

How the results depend on the processing

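With a median in place of the mean the set again held 38 loci, of which 36 were shared: 5430401H09Rik and Unc5c left, and Hey2 and Rfx6 entered. The count stayed within 1.5 times that count with TMM-scaled CPM (39) and with a level of at least 10 CPM (28). So it did without loci that share at least 50% of their exon length (37). That limit kept the merged Hoxc locus, which shares 48.7% of its exon length with other loci. It held 79 loci at 10-fold, 20 at 40-fold, 70 at a level of at least 1 CPM, 24 with FPKM in place of CPM (17 of them shared) and 17 when the lowest WT day 6 library was set against the highest other library. Leaving out 1 library at a time gave 34 to 44 loci, with 32 shared without Notch1-/- day 6 library 3. Clusters numbered 2 with a gap of at most 1 Mb and 3 at 10-fold, where the main count was 1.

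Of the calls in Notch1-/- day 6 against Notch1-/- day 0, 17 became 15 to 18 without 1 library, 22 with DESeq2, 16 with a replicate block and 10 when only the 2 groups compared were fitted, a fit with fewer libraries. In Notch1-/- day 0 against WT day 0, 3 became 1 to 5 without 1 library, 7 with DESeq2, 3 with the replicate block and 0 with only the 2 groups. Over the gene lists, calls in that comparison numbered 28, and 12 to 62 without 1 library, 43 with DESeq2, 45 with the replicate block and 9 with only the 2 groups; the cause was not tested. List calls without 1 library were 128 to 168 in Notch1-/- day 6 against Notch1-/- day 0 (main 161), 165 to 195 in WT day 6 against WT day 0 (main 189) and 127 to 164 in Notch1-/- day 6 against WT day 6 (main 155). Named neighbours higher in WT day 6 against WT day 0 were 37 to 44, and lower in Notch1-/- day 6 against WT day 6 29 to 42. These neighbour alternatives were chosen after seeing the data.

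Single members gave 713 repeats in Notch1-/- day 6 against Notch1-/- day 0, of which 27 lost and 19 gained a call, and 709 in Notch1-/- day 0 against WT day 0, of which 19 lost and 11 gained one. No called member turned direction in any of them. In Notch1-/- day 6 against Notch1-/- day 0 the replicate block ended the calls of Hbb-bh1 and Hba-x and added one for Tlx1, and it changed no other member's call. Depth limits members under about 10 counts per group, such as Nr1h5 and both globins at day 0.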
